A study of Rattus norvegicus with 2 samples.

Results

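The endoplasmic reticulum (ER) folding and secretory pathway genes described here are 35 genes chosen by symbol from the 25399 genes listed for each library. Of these, 9 encode chaperones and co-chaperones, 2 lectin chaperones, 6 disulfide enzymes, 8 components of ER-associated degradation, 6 translocon subunits and 4 signal peptidase subunits. The choice used no measured value, although earlier results of these data were known when the genes were chosen. All 35 symbols were found in the files, and 34 gave counts. Derl3, a derlin that helps pull misfolded proteins out of the ER, had 0 UMIs (unique molecular identifiers, each standing for 1 captured RNA molecule) over all barcodes of both libraries. A count of 0 allows a level of up to 0.0695 CPM (UMIs scaled so that a class or library sums to 1000000) in the aged and 0.0486 CPM in the young library. That limit holds for counted reads only, since a 3′ assay misses RNA whose end lies outside the annotated gene, which was not tested for Derl3.

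A protein bound for the cell surface or for export enters the ER through the Sec61 channel, loses its signal peptide to the signal peptidase complex, and folds with the help of chaperones and of enzymes that form and reshuffle disulfide bonds. Chains that fail to fold are recognised, pulled back to the cytosol and degraded, which is the work of ER-associated degradation. When unfolded protein builds up, the stress sensors of the ER raise the transcription of many of these genes, and plasma cells, which export antibody in bulk, are the textbook case of a cell with an enlarged ER.

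The study compared the rat meniscus (knee fibrocartilage) between aged and young animals by droplet single-cell RNA sequencing with a 10x Genomics 3′ kit. There is 1 aged and 1 young library, both from meniscus digested with protease and collagenase P and sorted for viability, and neither carries a treatment or a genetic change. The labels give no strain, sex, age in numbers or count of animals, and neither a number of animals pooled nor a transgene. Every age difference below is therefore a difference between these libraries, with no replicate check, no test and no p-value, and all intervals are exact 95% intervals that cover counting error only.

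After filtering, 6085 aged cells (median 3686 UMIs) and 8773 young cells (median 3846 UMIs) were kept, and 18 barcodes occurred in both libraries. Cells were placed in 5 classes by marker genes, and these gate genes are no finding. Plasma cells had at least 10 UMIs of Jchain, the joining chain of secreted antibody. All other classes had fewer. Other B cells had at least 2 UMIs of Cd79a, neutrophils at least 10 of S100a8, monocytes at least 1 of Csf1r, and stromal cells no Ptprc and at least 3 UMIs over Col2a1, Chad, Postn and Dcn. The classes held, in the aged and the young library, 258 and 32 plasma cells, 95 and 1173 other B cells, 530 and 198 stromal cells, 856 and 1167 neutrophils, and 476 and 268 monocytes. Cells that met several gates (119 and 253) or none (3751 and 5682) were set aside. Median depth differed widely, from 3078 UMIs in aged neutrophils to 30606.5 in young plasma cells, and stromal cells had a median of 5828.5 UMIs in the aged and 15137.5 in the young library.

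The marker lists were read in each class. All 8 plasma markers were found in plasma cells of both libraries, with a summed level of 3757 CPM (aged) and 6393 CPM (young) against 793 and 352 CPM in other B cells. Mzb1 gave 2477 and 3934 CPM of the plasma cell sum. Irf4 went the other way, at 36.3 and 64.6 CPM in plasma cells against 150 and 79.2 CPM in other B cells. The 9 B lineage markers summed to 1976 and 3226 CPM in other B cells against 251 and 352 CPM in plasma cells, where Pax5 was at 0 in both libraries. Against the rest of that list, Ms4a1 was higher in aged plasma cells (33.5 CPM) than in aged other B cells (21.4 CPM). The stromal list summed to 35189 and 55867 CPM in stromal cells and to at most 738 CPM in the other classes, and the neutrophil list to 239111 and 249303 CPM in neutrophils. These sums include the gate genes, whose part is set by the gates and is no support for the classes. S100a8 gave 128993 and 132155 CPM of the neutrophil sum and Dcn 18909 and 3804 CPM of the stromal sum. Jchain gave 814 and 1679 CPM of the plasma sum. The sum of the monocyte or macrophage list did not set monocytes (17234 and 17185 CPM) far apart from neutrophils (14344 and 12693 CPM), because Lyz2 gave most of it in both classes. Its other genes were higher in monocytes, such as C1qa (963 and 791 CPM against 37.4 and 1.64 CPM). Mpo was also higher there (1033 and 1069 CPM against 404 and 184 CPM). The class called monocytes is thus a Csf1r gate that may also hold macrophages and early myeloid cells. Free RNA was present in the droplets, since 50.6% of aged and 86.9% of young kept cells held an S100a8 UMI. Its part in the levels below was not tested, but if all Jchain UMIs outside plasma cells had come with plasma RNA, that RNA would have carried 13.1% of the ER gene UMIs in aged other B cells, 4.06% in aged neutrophils and at most 3.40% in the other classes. Reckoned from AABR07060872.1, the dominant plasma RNA described next, the same figure was 50.1% in aged other B cells, where it passed 50% for 13 of the genes. It was 9.36% in aged neutrophils and at most 5.35% elsewhere. Outside aged other B cells it passed 50% only for Txndc5 in young neutrophils. The 50.1% rests largely on 7 cells described next. The 4 genes named there took 17.9% of UMIs in aged other B cells and 0.725% without these 7 cells.

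In aged plasma cells 4 genes took 75.6% of all UMIs, and in young plasma cells 62.6%. They are AABR07060872.1, ENSRNOG00000034190 and AABR07034739.1, for which the files give no other name, and Igh-6, an immunoglobulin heavy chain gene. AABR07060872.1 alone took 67.0% of aged and 43.3% of young plasma UMIs. A share or CPM of any other gene in plasma cells is pressed down by these 4 genes, more so in the aged library, so the main plasma values are given both per all UMIs and per UMIs outside the 4 genes. CPM are per all UMIs unless said otherwise, and the change of scale adds 1.75 (aged) and 1.40 (young) to every plasma over other B log2 ratio. The same RNA marked 7 of the 95 aged other B cells, in which AABR07060872.1 took at least 5% of UMIs although Jchain stayed under the plasma gate. For aged other B cells, the main results of the plasma comparison and of the age comparison are also given without these 7 cells. Such cells also made up 13 of the 476 aged monocytes and 7 of the 856 aged neutrophils, against 0 and 2 young cells. Most monocyte and neutrophil values below keep them. The 7 aged cells named below are always those among other B cells.

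The summed share of the 35 genes was highest in plasma cells in both libraries, and lowest in neutrophils. In plasma cells the genes made up 1.03% of UMIs in the aged library (1.02 to 1.03) and 2.15% in the young library (2.12 to 2.18). The plasma shares outside the 4 dominant genes were 4.198% and 5.73%. In other B cells they were 0.468% (aged) and 0.463% (young), in stromal cells 0.652% and 0.867%, in monocytes 0.769% and 0.795%, and in neutrophils 0.288% and 0.310%. Monocytes and stromal cells thus lay between other B cells and plasma cells, with monocytes above stromal cells in the aged library and below them in the young library.

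Counted per cell, a median plasma cell held 253 UMIs of these genes in the aged and 668 in the young library. The medians were 27 and 23 in other B cells, 37 and 125.5 in stromal cells, 42.5 and 38 in monocytes, and 4 and 5 in neutrophils. The spread among cells was wide in plasma cells, where the middle 50% of young cells ran from 1.12% to 2.79% and that of aged cells from 0.777% to 1.28%. In neutrophils and monocytes the summed share lay above the median cell (0.147% and 0.159% in neutrophils, 0.543% and 0.510% in monocytes).

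**Figure D1:**
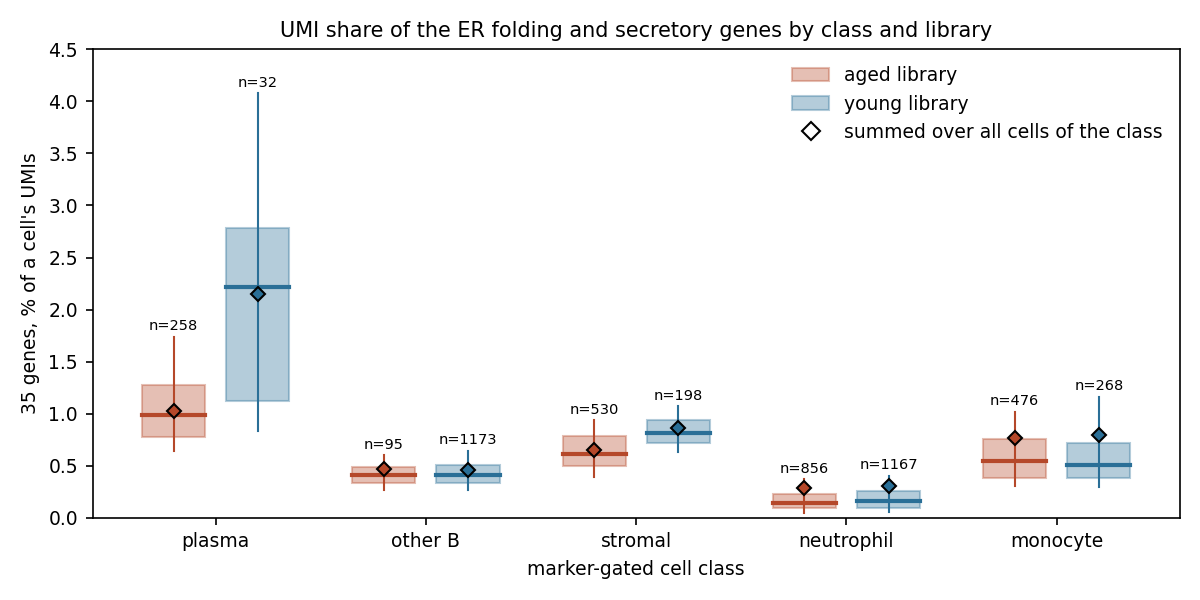
Share of each cell's UMIs (vertical axis, %) that came from the 35 ER genes, by class and library. Boxes span the middle 50% of cells with the median as a bar, thin lines run from the 10th to the 90th percentile, diamonds mark the summed share, and n is the number of cells. Plasma cells stand highest, at summed shares of 1.03% (aged) and 2.15% (young).

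The first comparison set plasma cells against other B cells within each library, so that both classes come from the same run of droplets, although plasma cells were deeper. The ER genes as a whole were 2.19-fold higher in plasma cells of the aged library (log2 ratio 1.13, 1.09 to 1.18) and 4.64-fold higher in the young library (2.21, 2.19 to 2.24). The ratios outside the 4 dominant genes were 7.36-fold and 12.3-fold. The direction held on every scale tried, and it was also seen without the 7 aged cells (log2 ratio 1.29).

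By gene, 15 of the 34 counted members were at least 2-fold higher in aged plasma cells than in aged other B cells, where 6.61% of all 6585 genes compared passed the same fold. In the young library 28 of 34 passed, against 3.47% of all 9465 genes. On the scale outside the 4 dominant genes it was 31 of 34 in each library, against 18.6% (aged) and 17.8% (young) of all genes. The median member ratio was 0.82 (aged) and 1.88 (young) on the log2 scale, and the median over all genes was −2.40 and −1.69. In the other direction, Canx and Syvn1 were at least 2-fold lower in aged plasma cells (78.4% of all genes were) and Syvn1 alone in young plasma cells (71.3%). Without the 7 aged cells, Pdia3 (−1.15) and Derl2 (−1.10) were 2-fold lower in aged plasma cells as well. Outside the 4 genes no member was 2-fold lower, while 40.2% and 27.4% of all genes were.

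**Figure D2:**
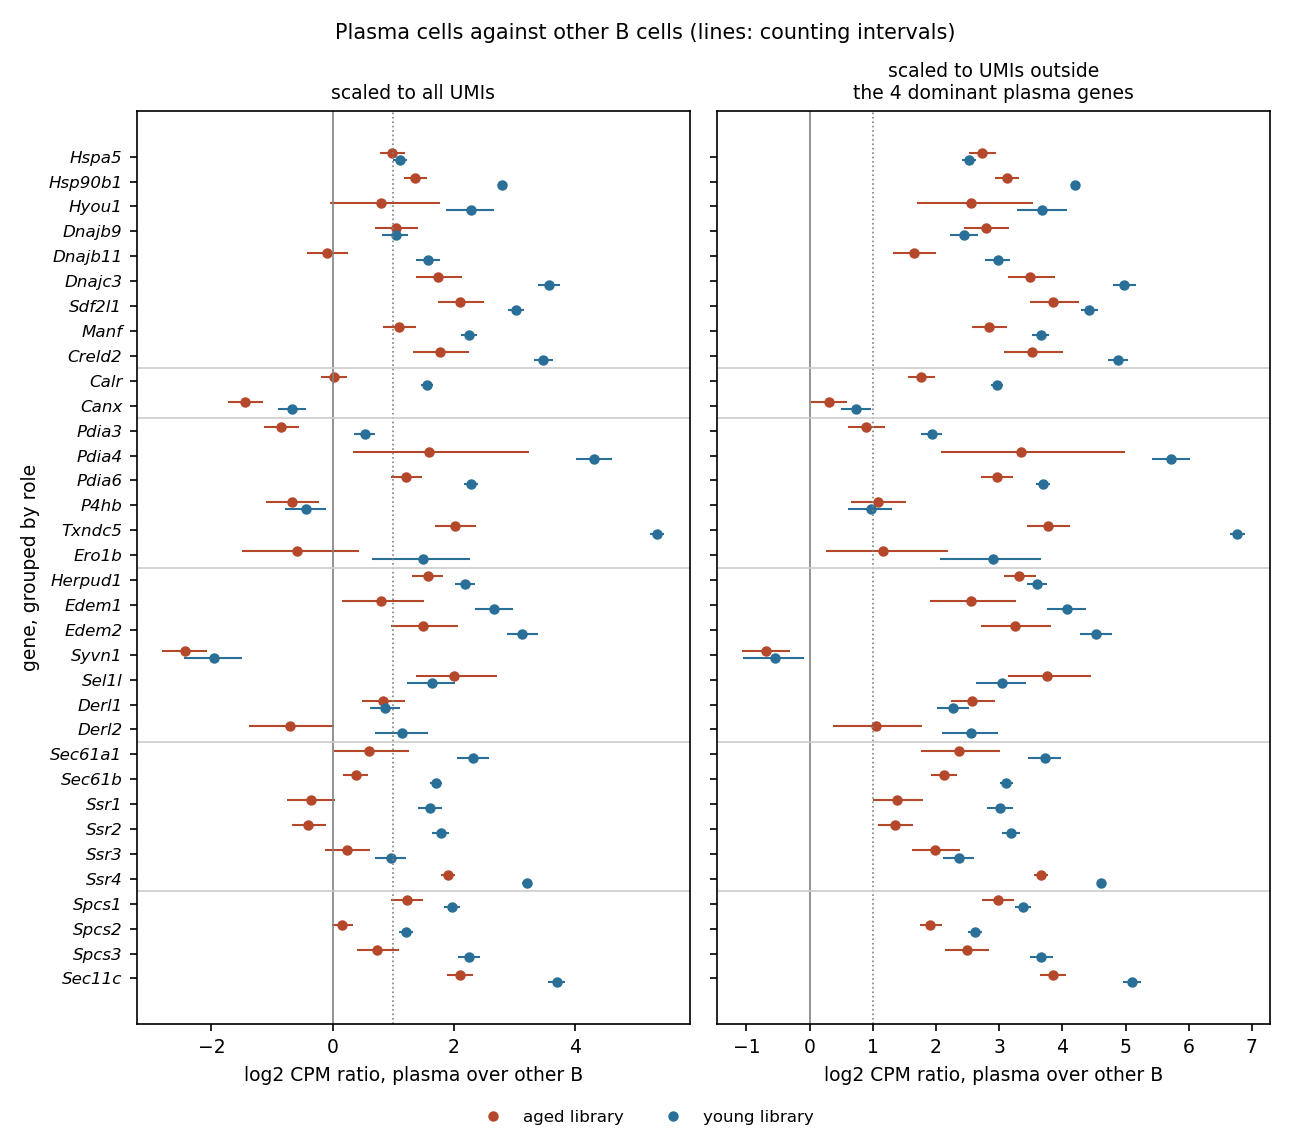
Log2 ratio of CPM in plasma cells over other B cells for each counted gene (vertical axis, grouped by role) in both libraries, scaled to all UMIs (left) and to UMIs outside the 4 dominant genes (right). Lines are exact 95% counting intervals, the dotted line marks 2-fold; Txndc5 stands farthest right in the young library (5.36 on the left scale) and Syvn1 farthest left in both (−2.44 aged, −1.96 young).

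Promoter sequences bear on these genes because the ER stress response is known to act through short promoter elements. RefSeq promoter sequences on the GRCr8 build were matched by symbol for 30 of the 35 genes, and the 250 bases before each start were searched on both strands. Pdia3, Pdia6, Manf, Derl1 and Sec61a1 were not in the table. The ER stress response element (ERSE), spelled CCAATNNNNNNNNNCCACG, occurred in the promoters of 8 members, namely Calr, Canx, Creld2, Derl3, Dnajc3, Ero1b, Hsp90b1 and Hspa5, out of 31 member promoters (Hyou1 has 2 starts). Over all 33469 promoters in the table it occurred in 22 (0.0657%). ERSE-II, spelled ATTGGNCCACG, occurred in Herpud1 and Hyou1 and in 14 of all promoters (0.0418%). The unfolded protein response element, spelled TGACGTGG, occurred in Hyou1 and in 174 of all promoters (0.520%), and in Hyou1 it overlaps an ERSE-II.

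Whole upstream windows are printed for the major ER chaperones Hspa5 and Hsp90b1 and for Creld2, which is among the members with the largest plasma ratios. Each runs 5′ to 3′ on the strand of its gene and ends at the base before the start, with the elements in capitals. The windows are chr3:38452766-38453015 on the plus strand (Hspa5), chr7:23012294-23012543 on the minus strand (Hsp90b1) and chr7:121789134-121789383 on the plus strand (Creld2).
Hspa5: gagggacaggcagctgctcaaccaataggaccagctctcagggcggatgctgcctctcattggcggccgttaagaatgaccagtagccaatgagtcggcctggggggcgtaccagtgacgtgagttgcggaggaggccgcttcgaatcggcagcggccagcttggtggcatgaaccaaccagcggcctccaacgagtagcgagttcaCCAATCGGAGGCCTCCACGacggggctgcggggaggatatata
Hsp90b1: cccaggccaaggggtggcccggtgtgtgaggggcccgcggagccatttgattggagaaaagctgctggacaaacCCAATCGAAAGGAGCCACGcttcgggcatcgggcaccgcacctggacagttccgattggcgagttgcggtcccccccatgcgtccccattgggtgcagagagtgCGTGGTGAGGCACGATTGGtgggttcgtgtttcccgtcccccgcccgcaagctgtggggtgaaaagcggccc
Creld2: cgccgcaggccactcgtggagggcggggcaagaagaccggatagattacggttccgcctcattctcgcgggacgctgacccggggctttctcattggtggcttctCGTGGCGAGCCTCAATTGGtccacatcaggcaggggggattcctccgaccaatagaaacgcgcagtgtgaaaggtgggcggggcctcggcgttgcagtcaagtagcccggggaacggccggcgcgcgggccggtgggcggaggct

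For the other members with an element, the element is shown in capitals between its neighbouring bases, again 5′ to 3′ on the strand of the gene, so that the shared letters can be compared. The stretches lie at chr19:40213117-40213173 (Calr, plus), chr10:35158049-35158107 (Canx, minus), chr20:12766581-12766639 (Derl3, minus), chr15:102432514-102432572 (Dnajc3, plus), chr17:92941438-92941496 (Ero1b, plus), chr19:10614801-10614851 (Herpud1, minus), and chr8:53602674-53602724 and chr8:53602774-53602824 (Hyou1, plus, where the capitals mark ERSE-II).
Calr: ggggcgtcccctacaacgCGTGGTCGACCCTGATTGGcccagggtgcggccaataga
Canx: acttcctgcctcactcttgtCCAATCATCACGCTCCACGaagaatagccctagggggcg
Derl3: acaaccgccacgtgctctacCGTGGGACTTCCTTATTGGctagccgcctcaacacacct
Dnajc3: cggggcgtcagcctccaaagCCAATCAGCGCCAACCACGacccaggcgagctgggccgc
Ero1b: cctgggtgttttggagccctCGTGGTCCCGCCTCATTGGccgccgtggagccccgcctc
Herpud1: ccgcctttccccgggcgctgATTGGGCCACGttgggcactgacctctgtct
Hyou1, farther from the start: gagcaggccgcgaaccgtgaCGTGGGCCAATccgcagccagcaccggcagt
Hyou1, nearer the start: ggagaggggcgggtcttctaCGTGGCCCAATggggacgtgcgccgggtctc

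A match is a description of letters and not of binding, and no match says only that these letters are not in the window. Members with an ERSE or ERSE-II had a median plasma over other B log2 ratio, outside the 4 dominant genes, of 2.73 (aged) and 3.60 (young) over the 9 that gave counts. The 20 members with neither had medians of 2.52 and 3.15. The ranges overlapped widely, from 0.31 to 3.53 with an element and from −0.69 to 3.86 without in the aged library, and from 0.74 to 4.98 and from −0.55 to 6.77 in the young library. Txndc5 and Pdia4, which had the largest young ratios, held none of the 3 elements in their windows.

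Among the chaperones, Hspa5 (BiP), the ER member of the Hsp70 family and the chaperone that binds most nascent chains, was found in every class. Its level was 476 CPM in aged and 784 CPM in young plasma cells, 240 and 361 CPM in other B cells, 659 and 770 CPM in stromal cells, 562 and 696 CPM in monocytes, and 316 and 398 CPM in neutrophils. Its plasma over other B log2 ratio was 0.99 (0.78 to 1.20) in the aged and 1.12 (1.00 to 1.23) in the young library. Hspa5 was thus a widely used gene with a span of 2.74-fold between its highest and lowest class in the aged library, and stromal cells had its highest aged level on the all-UMI scale (plasma cells outside the 4 dominant genes).

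Hsp90b1 (GRP94), the ER form of Hsp90, was more tied to plasma cells. It was at 763 (aged) and 2528 CPM (young) in plasma cells, 295 and 362 CPM in other B cells, 513 and 538 CPM in stromal cells, 414 and 491 CPM in monocytes, and 152 and 202 CPM in neutrophils. Its plasma over other B log2 ratio was 1.37 (1.19 to 1.56) in the aged and 2.80 (2.73 to 2.88) in the young library, or 3.12 and 4.21 outside the 4 dominant genes. Creld2, an ER-resident protein induced by ER stress, was at 171 and 695 CPM in plasma cells, 49.99 and 62.1 CPM in other B cells, 38.4 and 56.5 CPM in stromal cells, 72.9 and 83.9 CPM in monocytes, and 28.4 and 37.6 CPM in neutrophils. Its ratios were 1.78 (1.33 to 2.26) and 3.48 (3.33 to 3.64), or 3.53 and 4.89 outside the 4 dominant genes, so that Creld2 had a lower level than Hsp90b1 everywhere but a larger plasma ratio in both libraries.

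Dnajc3 (p58IPK), a J-domain co-chaperone of Hspa5, was at 252 (aged) and 545 CPM (young) in plasma cells, 74.99 and 45.7 CPM in other B cells, 84.6 and 101 CPM in stromal cells, 159 and 142 CPM in monocytes, and 43.1 and 37.8 CPM in neutrophils. Its plasma ratio was 1.75 (1.38 to 2.13) in the aged library, 2.57 without the 7 aged cells, and 3.58 (3.40 to 3.76) in the young library, and outside the 4 dominant genes it was 3.496 and 4.98. Sdf2l1, a partner of Dnajb11, was at 303 and 840 CPM in plasma cells, 70.2 and 103 CPM in other B cells, 50.1 and 36.0 CPM in stromal cells, 266 and 258 CPM in monocytes, and 65.9 and 63.1 CPM in neutrophils. Sdf2l1 was therefore a gene of plasma cells and monocytes more than of stromal cells.

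Manf, a stress-induced secreted protein that binds Hspa5, was at 298 (aged) and 711 CPM (young) in plasma cells, 139 and 149 CPM in other B cells, 239 and 297 CPM in stromal cells, 296 and 310 CPM in monocytes, and 113 and 117 CPM in neutrophils. Dnajb11, a J-domain co-chaperone, was at 92.7 and 277 CPM in plasma cells, 98.8 and 92.9 CPM in other B cells, 54.7 and 91.9 CPM in stromal cells, 125 and 112 CPM in monocytes, and 44.5 and 48.3 CPM in neutrophils. Hyou1, the large Hsp70 relative of the ER, was low everywhere, at 24.9 and 81.7 CPM in plasma cells, 14.3 and 16.8 CPM in other B cells, 25.5 and 29.9 CPM in stromal cells, 33.5 and 47.1 CPM in monocytes, and 8.16 and 12.0 CPM in neutrophils. Manf, Dnajb11 and Hyou1 shared a pattern in which aged plasma cells lay within 1.5-fold of aged monocytes while young plasma cells stood above every other class, both per all UMIs. On the scale outside the 4 dominant genes aged plasma cells were highest for all 3, with 1219 CPM of Manf, 379 CPM of Dnajb11 and 102 CPM of Hyou1 against 305, 128 and 34.5 CPM in aged monocytes. The J-domain co-chaperone Dnajb9 ranged from 65.1 to 218 CPM over the classes.

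The lectin chaperones hold glycoproteins by their sugar chains until they fold. Calr, the soluble member of the pair, was at 248 (aged) and 1155 CPM (young) in plasma cells, 244 and 392 CPM in other B cells, 872 and 1038 CPM in stromal cells, 802 and 931 CPM in monocytes, and 185 and 244 CPM in neutrophils. Per all UMIs its plasma over other B log2 ratio was 0.02 (−0.19 to 0.24) in the aged and 1.56 (1.46 to 1.65) in the young library, and outside the 4 dominant genes it was 1.77 and 2.96. Canx, the membrane-bound member, was at 61.8 and 162 CPM in plasma cells, 168 and 257 CPM in other B cells, 253 and 218 CPM in stromal cells, 360 and 360 CPM in monocytes, and 82.2 and 123 CPM in neutrophils. It was lower in plasma cells than in other B cells on the all-UMI scale, with log2 ratios of −1.44 (−1.72 to −1.16) and −0.66 (−0.90 to −0.43). The Canx ratio, taken outside the 4 dominant taken outside the 4 dominant genes, turned to 0.31 (0.03 to 0.59) and 0.74 (0.50 to 0.97).

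The disulfide enzymes differed widely among themselves. Txndc5 is an ER thioredoxin-domain protein. It had the largest plasma over other B log2 ratio of all members in the young library, at 5.36 (5.24 to 5.48). In the aged library its ratio was 2.03 (1.70 to 2.38), where Sdf2l1 and Sec11c were higher. Without the aged other B cells rich in AABR07060872.1, the aged Txndc5 ratio was 2.63 (2.17 to 3.13). It then lay above Sdf2l1 (2.20) but below Ssr4 (2.99) and Sec11c (3.61). Txndc5 was at 369 (aged) and 2872 CPM (young) in plasma cells against 90.5 and 69.8 CPM in other B cells. After every cell was thinned to 1000 UMIs, 28.7% of aged and 90.6% of young plasma cells kept a Txndc5 UMI, against 6.32% and 5.97% of other B cells. In neutrophils, which should lack the plasma programme, it was 0.824% and 1.20% (850 and 1166 cells deep enough to thin). In stromal cells Txndc5 was at 178 and 284 CPM, in monocytes at 85.9 and 90.7 CPM, and in neutrophils at 22.8 and 38.6 CPM. Reckoned from AABR07060872.1, plasma RNA would have carried over 50% of the young neutrophil level, and its real part was not tested.

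Pdia4, a protein disulfide isomerase with several thioredoxin domains, was the second of the plasma-enriched disulfide enzymes, but rested on few UMIs in aged other B cells. It was at 18.0 (aged) and 275 CPM (young) in plasma cells, 5.95 and 13.8 CPM in other B cells, 36.6 and 84.2 CPM in stromal cells, 21.1 and 44.6 CPM in monocytes, and 8.44 and 14.1 CPM in neutrophils. With 5 UMIs behind the aged other B value, its aged ratio of 1.60 had an interval from 0.34 to 3.25, and its young ratio was 4.31 (4.02 to 4.62), while outside the 4 dominant genes the ratios were 3.35 and 5.72. Pdia6, which gave most UMIs of the disulfide group over the 5 classes, was at 373 and 950 CPM in plasma cells, 161 and 194 CPM in other B cells, 298 and 406 CPM in stromal cells, 421 and 445 CPM in monocytes and 102 and 110 CPM in neutrophils. Its ratios were 1.22 (0.97 to 1.48) and 2.29 (2.18 to 2.40), and 2.96 and 3.69 outside the 4 dominant genes. Monocytes had its highest aged level per all UMIs.

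P4hb and Pdia3 followed another pattern. P4hb, the isomerase that is also the beta subunit of collagen prolyl 4-hydroxylase, was highest in stromal cells at 426 (aged) and 624 CPM (young), with 377 and 390 CPM in monocytes, but 41.1 and 77.7 CPM in plasma cells, 65.5 and 105 CPM in other B cells and 119 and 109 CPM in neutrophils. Pdia3, which works with the lectin chaperones on glycoproteins, was likewise highest in stromal cells, at 519 and 613 CPM, with 370 and 478 CPM in monocytes, 149 and 237 CPM in other B cells, 120 and 152 CPM in neutrophils and 82.5 and 342 CPM in plasma cells. The highest class of Pdia3 in the young library was plasma on the scale outside the 4 dominant genes. Ero1b, an oxidase that recharges the isomerases, was low in every class, at 2.25 to 18.2 CPM.

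In ER-associated degradation, Herpud1, a membrane protein of the degradation complex, was at 477 (aged) and 442 CPM (young) in plasma cells, 161 and 96.5 CPM in other B cells, 184 and 184 CPM in stromal cells, 202 and 106 CPM in monocytes and 120 and 101 CPM in neutrophils. Sel1l, the adaptor of the ubiquitin ligase Syvn1, was at 101 and 71.6 CPM in plasma cells and at 16.9 to 35.7 CPM elsewhere. The ratio of Herpud1 was 1.57 (1.32 to 1.83) and 2.20 (2.03 to 2.36), and that of Sel1l 2.01 and 1.64.

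Edem1 and Edem2 act on the mannose residues of misfolded glycoproteins and mark them for degradation. Edem1 was at 43.6 (aged) and 139 CPM (young) in plasma cells, 24.996 and 21.9 CPM in other B cells, 8.30 and 6.75 CPM in stromal cells, 31.9 and 24.0 CPM in monocytes, and 27.3 and 18.4 CPM in neutrophils. Edem2 was at 101 and 244 CPM in plasma cells, 35.7 and 27.8 CPM in other B cells, 13.2 and 17.0 CPM in stromal cells, 47.8 and 50.2 CPM in monocytes, and 16.3 and 26.0 CPM in neutrophils. Both were thus lower in stromal cells than in other B cells in each library. Derl2, a derlin, was at 16.1 and 54.5 CPM in plasma cells, 26.2 and 24.6 CPM in other B cells, 39.4 and 54.3 CPM in stromal cells, 23.0 and 34.0 CPM in monocytes, and 21.7 and 24.5 CPM in neutrophils. Derl1, its paralog, ranged from 68.7 to 158 CPM over the classes.

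Syvn1 (HRD1) itself ran against the rest. It was at 121 (aged) and 153 CPM (young) in other B cells, and at 20.8 to 46.1 CPM in the 4 other classes of both libraries, plasma cells included (22.3 and 39.3 CPM). Its plasma over other B log2 ratio was −2.44 (−2.82 to −2.07) and −1.96 (−2.45 to −1.50), and outside the 4 dominant genes −0.69 and −0.55, the lowest of all members on both scales. Under edgeR TMM and DESeq2 median-of-ratios scaling, which moved ratios of this comparison upward by 2.49 and 2.51 (aged) and 1.68 and 1.72 (young), the aged Syvn1 ratio comes to about 0 and the young ratio stays below it. Within other B cells of the young library, Syvn1 was at 123 CPM in cells with surrogate light chain RNA, 205 CPM in cells with Ms4a1, and 174 CPM in cells with neither.

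The translocon genes gave the largest part of the ER UMIs in aged plasma cells. Ssr4, the delta subunit of the translocon-associated protein complex, was at 3003 CPM (aged) and 2974 CPM (young) in plasma cells, 800 and 321 CPM in other B cells, 360 and 788 CPM in stromal cells, 808 and 600 CPM in monocytes and 253 and 172 CPM in neutrophils. Its plasma ratio in the young library was 3.21 (3.14 to 3.28). Thinned to 1000 UMIs, 92.6% of aged and 93.8% of young plasma cells kept an Ssr4 UMI, against 7.65% and 6.86% of neutrophils. Without the 7 aged cells, Ssr4 was at 379 CPM in aged other B cells.

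The other subunits of the same complex did not follow Ssr4. Ssr1 was at 58.4 (aged) and 266 CPM (young) in plasma cells, 74.99 and 87.3 CPM in other B cells, 69.8 and 155 CPM in stromal cells, 134 and 143 CPM in monocytes, and 60.5 and 62.3 CPM in neutrophils. Ssr2 was at 111 and 524 CPM in plasma cells, 146 and 152 CPM in other B cells, 213 and 451 CPM in stromal cells, 215 and 232 CPM in monocytes, and 67.6 and 92.9 CPM in neutrophils. In aged plasma cells the log2 ratios of Ssr1, Ssr2 and Ssr3 over other B cells were −0.36, −0.40 and 0.24, against 1.91 (1.80 to 2.02) for Ssr4. Per UMIs outside the 4 dominant genes all 4 were positive, at 1.39, 1.35, 1.99 and 3.66. Ssr3 ranged from 48.0 to 211 CPM over the classes.

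Per all UMIs the channel subunits had their highest level in monocytes in the aged library and in plasma cells in the young library. Sec61a1, the pore-forming subunit, was at 45.4 (aged) and 177 CPM (young) in plasma cells, 29.8 and 35.4 CPM in other B cells, 70.1 and 91.2 CPM in stromal cells, 74.0 and 68.9 CPM in monocytes, and 29.8 and 29.8 CPM in neutrophils. Sec61b, a small subunit, was at 341 and 942 CPM in plasma cells, 262 and 288 CPM in other B cells, 281 and 494 CPM in stromal cells, 575 and 609 CPM in monocytes, and 225 and 275 CPM in neutrophils. Both were highest in plasma cells in each library on the scale outside the 4 dominant genes.

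The signal peptidase genes were led in plasma cells by Sec11c, a catalytic subunit. Sec11c was at 1012 (aged) and 934 CPM (young) in plasma cells, 236 and 71.7 CPM in other B cells, 81.2 and 144 CPM in stromal cells, 238 and 187 CPM in monocytes and 99.6 and 53.3 CPM in neutrophils. Spcs2, an accessory subunit, was more even, at 405 and 783 CPM in plasma cells, 362 and 336 CPM in other B cells, 221 and 237 CPM in stromal cells, 358 and 360 CPM in monocytes and 124 and 146 CPM in neutrophils. The plasma over other B log2 ratio of Sec11c was 2.10 (1.90 to 2.31) in the aged library, 3.61 without the 7 aged cells, and 3.70 (3.56 to 3.84) in the young library, and that of Spcs2 was 0.16 (−0.01 to 0.34) and 1.22 (1.11 to 1.33). On the scale outside the 4 dominant genes they were 3.85 and 5.11 for Sec11c and 1.91 and 2.62 for Spcs2. Spcs3, another accessory subunit, was at 153 and 369 CPM in plasma cells, 91.7 and 77.0 CPM in other B cells, 65.5 and 54.0 CPM in stromal cells, 104 and 118 CPM in monocytes, and 41.9 and 40.9 CPM in neutrophils. Spcs1, a further accessory subunit, ranged from 69.2 to 654 CPM over the classes.

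**Figure D3:**
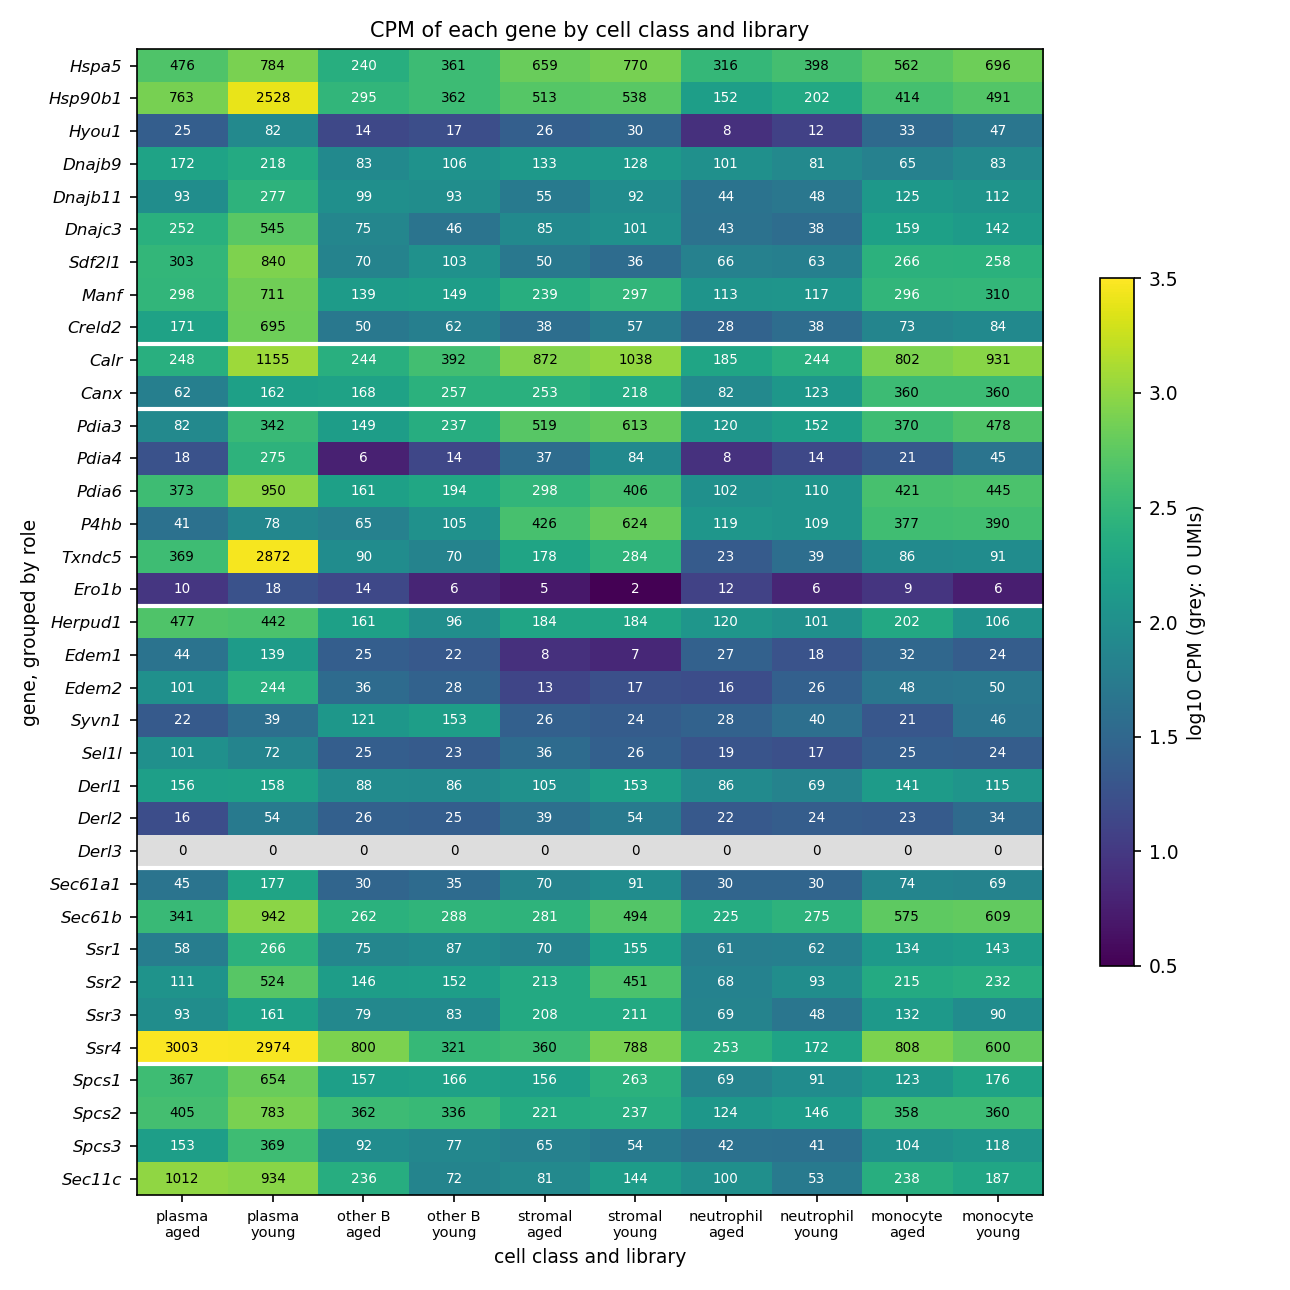
CPM of each of the 35 genes (rows, grouped by role) in each class and library (columns); the number in a cell is the CPM, its colour is log10 CPM, and grey marks 0 UMIs. Ssr4 in plasma cells (3003 aged, 2974 young) is the brightest row and Derl3 is at 0 throughout.

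Sorted by class, plasma cells had the highest CPM for 17 of the 34 counted genes in the aged library and for 29 in the young library, and for 30 and 32 outside the 4 dominant genes. Neutrophils had the lowest CPM for 19 and 25 genes, and the highest for none. No such order over all genes is given here, so these counts are not read as particular to the members. Neutrophils were low for genes in general. Their median log2 ratio over other B cells was −0.86 (aged) and −0.90 (young) over all genes, and −0.41 and −0.49 over the members. Of the 2 young exceptions outside the 4 genes, Syvn1 was highest in other B cells and P4hb in stromal cells.

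The make-up of the ER UMIs also differed between classes. These are shares of 3′ UMIs, which count molecules and are not divided by transcript length. Translocon genes gave 35.6% of the ER UMIs in aged and 23.5% in young plasma cells, and signal peptidase genes 18.9% and 12.8%. Ssr4 alone held 20171 of the 24526 translocon UMIs in aged and 2948 of the 5000 in young plasma cells. The translocon share of plasma cells was thus largely that of Ssr4 and not of the group. Disulfide enzymes gave 8.71% in aged and 21.1% in young plasma cells, against 22.4% and 23.2% in stromal cells. Lectin chaperones were 3.02% and 6.14% in plasma cells but 17.3% and 14.5% in stromal cells and 15.1% and 16.2% in monocytes. Stromal cells and monocytes thus put a larger part of their ER UMIs into Calr and Canx than plasma cells did, in both libraries. Plasma cells put a larger part into signal peptidase than stromal cells and monocytes did. That part was not particular to plasma cells, since it was 18.1% (aged) and 14.1% (young) in other B cells. These shares are taken within the list and do not depend on the 4 dominant genes.

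**Figure D4:**
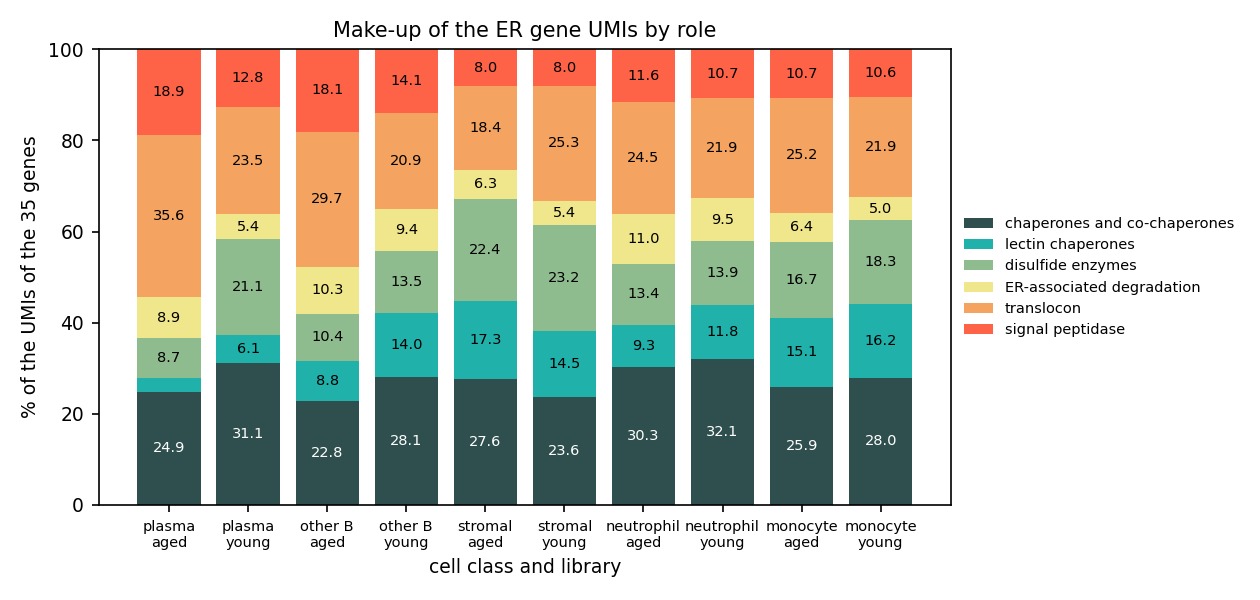
Make-up of the UMIs of the 35 genes by role (stacked bars, % of the ER gene UMIs) in each class and library. Translocon genes, mostly Ssr4, form 35.6% of the aged and 23.5% of the young plasma bar, and lectin chaperones 17.3% and 14.5% of the stromal bars.

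In stromal cells, which secrete the collagens and proteoglycans of the tissue, the ER genes were 1.39-fold (aged) and 1.87-fold (young) higher than in other B cells. Outside the 4 dominant genes the ratios were 1.15-fold and 1.86-fold. By gene, 7 of 34 were at least 2-fold higher in the aged library (30.6% of all genes) and 14 of 34 in the young library (22.9%). The 7 aged genes were Hspa5, Calr, Pdia3, Pdia4, P4hb, Sec61a1 and Ssr3, and each also passed in the young library. P4hb led with Pdia4, at log2 ratios of 2.70 and 2.62 (aged) and 2.57 and 2.60 (young). Genes at least 2-fold lower in stromal cells numbered 6 (aged, 23.0% of all genes) and 4 (young, 37.5%), with Syvn1, Edem1 and Ero1b among them in both libraries.

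Monocytes had the ER genes 1.64-fold (aged) and 1.72-fold (young) above other B cells, or 1.39-fold and 1.70-fold outside the 4 dominant genes. At least 2-fold higher were 13 of 34 genes in the aged library (22.5% of all genes) and 11 of 34 in the young library (14.9%), and Syvn1 was the only gene at least 2-fold lower in either (14.1% and 20.6% of all genes). P4hb was again the leading gene, with log2 ratios of 2.53 and 1.89. In neutrophils no gene was 2-fold higher than in other B cells (18.2% and 12.6% of all genes were), and 11 (aged, 46.0%) and 3 (young, 44.5%) were 2-fold lower. The aged counts for stromal cells, monocytes and neutrophils keep the 7 other B cells rich in AABR07060872.1. Without these, Ssr4 and Sec11c were at 379 and 83.0 CPM in aged other B cells. The lowest aged class levels were 253 CPM (Ssr4, neutrophils) and 81.2 CPM (Sec11c, stromal cells), so neither gene was then 2-fold lower.

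Within neutrophils and monocytes, cells with at least 2 UMIs of Mpo, the myeloperoxidase gene of early granulocytes and monocytes, carried more ER gene RNA. This split was chosen after the data were seen. The 24 aged and 28 young neutrophils with Mpo had 0.781% and 0.732% of UMIs in the ER genes, against 0.237% and 0.281% in the rest. The 72 aged and 32 young monocytes with Mpo had 1.01% and 1.14%, against 0.641% and 0.623%. The Mpo cells were also deeper, with median UMI counts of 13133.5 and 8935.5 in neutrophils (3037.5 and 3592 in the rest) and of 29315.5 and 31948.5 in monocytes (7465 and 6727 in the rest), and the part of depth in the difference was not tested. In these monocytes Calr was at 1088 (aged) and 1056 CPM (young) and Sec61b at 908 and 1172 CPM.

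Other genes of the secretory route were read from lists of 5 neighbouring groups. Of the other ER folding genes, 6 of 13 compared were at least 2-fold higher in aged plasma than in aged other B cells and 10 of 13 in the young library, where 6.61% (aged) and 3.47% (young) of all genes passed. They were led by Mzb1, a partner of Hsp90b1 in B lineage cells, at 2477 and 3934 CPM in plasma cells against 525 and 239 CPM, by the prolyl isomerase Fkbp11 (573 and 643 CPM against 123 and 52.6 CPM), by Selenom (216 and 154 CPM against 36.9 and 6.35 CPM) and by Pdia5 (20.7 and 63.6 CPM against 9.52 and 2.02 CPM). Mzb1 is also a plasma marker. Of the oligosaccharyltransferase genes, which attach sugar chains, 2 of 9 (aged) and 7 of 10 (young) passed. Ddost was highest among them by ratio, at 302 and 674 CPM against 97.6 and 99.2 CPM.

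The remaining lists are given on the same scale, and no test compared the lists. Of the genes for vesicles leaving the ER, their cargo receptors and retrieval, 1 of 17 (aged) and 8 of 18 (young) passed. Among these, the cargo receptor Lman1 was at 44.2 and 297 CPM in plasma cells against 44.0 and 41.9 CPM. Of the signal recognition and other translocation genes 0 of 10 (aged) and 1 of 10 (young, Srpra) passed, and of the stress sensors and factors 2 of 9 and 2 of 10. Both times these were Ern1, the IRE1 sensor (27.7 and 13.1 CPM against 1.19 and 1.25 CPM), and Xbp1, the factor it activates (25.6 and 46.4 CPM against 3.57 and 7.31 CPM). The aged other B value of Xbp1 rests on 3 UMIs and that of Ern1 on fewer, so the size of their aged ratios is uncertain. On the scale outside the 4 dominant genes, where 18.6% and 17.8% of all genes passed, the list counts were 11 and 13 (other ER folding), 8 and 9 (oligosaccharyltransferase), 14 and 15 (vesicles and retrieval), 1 and 4 (signal recognition) and 6 and 6 (stress sensors).

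The second comparison set the aged against the young library within each class. In plasma cells the ER genes made up 1.03% of aged and 2.15% of young UMIs, a log2 ratio of −1.06 (−1.09 to −1.04). Much of this lay in the scale: the median over all 5752 genes compared was −0.91, the ratio outside the 4 dominant genes was −0.45 (−0.47 to −0.43), and it came to 0.01 under TMM and −0.0049 under median-of-ratios scaling. The summed share of the ER genes in plasma cells was therefore lower in the aged library per UMI, with a size that the scale set and a sign that TMM turned.

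The genes did not shift together, which no scale alters. Relative to the young library, aged plasma cells had 28 of 34 genes at least 1.5-fold lower (64.8% of all genes) and 0 higher (11.1%). Outside the 4 dominant genes 20 were lower (36.1%) and 5 higher (20.2%), and under TMM 12 were lower and 6 higher. Shares of all genes were not computed under TMM, here or in the classes below. The TMM counts therefore show only how the scale moves the members. Single genes spanned log2 ratios from −3.93 to 0.49 on the all-UMI scale.

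The disulfide enzymes Pdia4 and Txndc5 were the lowest in aged plasma cells. Pdia4 was at 18.0 CPM aged and 275 CPM young (−3.93, −4.26 to −3.62), and Txndc5 at 369 and 2872 CPM (−2.96, −3.04 to −2.88). Outside the 4 dominant genes their ratios were −3.32 and −2.35, and over the settings tried Pdia4 stayed between −4.02 and −2.86. Next came Ssr2 (−2.24), Calr (−2.22), Ssr1 (−2.19), Pdia3 (−2.05) and Creld2 (−2.02), and then Sec61a1 (−1.96), Derl2 (−1.76), Hsp90b1 (−1.73), Hyou1 (−1.72), Edem1 (−1.67) and Dnajb11 (−1.58). Sec61b, Sdf2l1, Canx, Pdia6, Edem2, Spcs3, Manf and Dnajc3 lay between −1.47 and −1.11.

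At the other end stood Sel1l, Sec11c, Herpud1, Ssr4 and Derl1, whose all-UMI ratios were 0.49, 0.12, 0.11, 0.01 and −0.02. Outside the 4 dominant genes they became 1.11, 0.73, 0.73, 0.63 and 0.60, and these are the 5 genes counted as higher there. Of the aged plasma cells thinned to 1000 UMIs, 63.2% kept a Sec11c UMI and 28.7% a Txndc5 UMI, and of the young 56.2% and 90.6%. Thinning sets every cell to the same UMI total, so the 4 dominant genes press these shares down. The shares do not count RNA per cell. Outside the 4 genes, Txndc5 reached 1509 CPM in aged plasma cells, near Pdia6 (1528 CPM) but below the 7671 CPM of young plasma cells. Aged other B cells without the 7 cells had 60.0 CPM of Txndc5 on that scale. Hspa5 lay between the ends, at 476 against 784 CPM (−0.72), or 1949 against 2094 CPM outside the 4 genes (−0.10, −0.22 to 0.01).

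**Figure D5:**
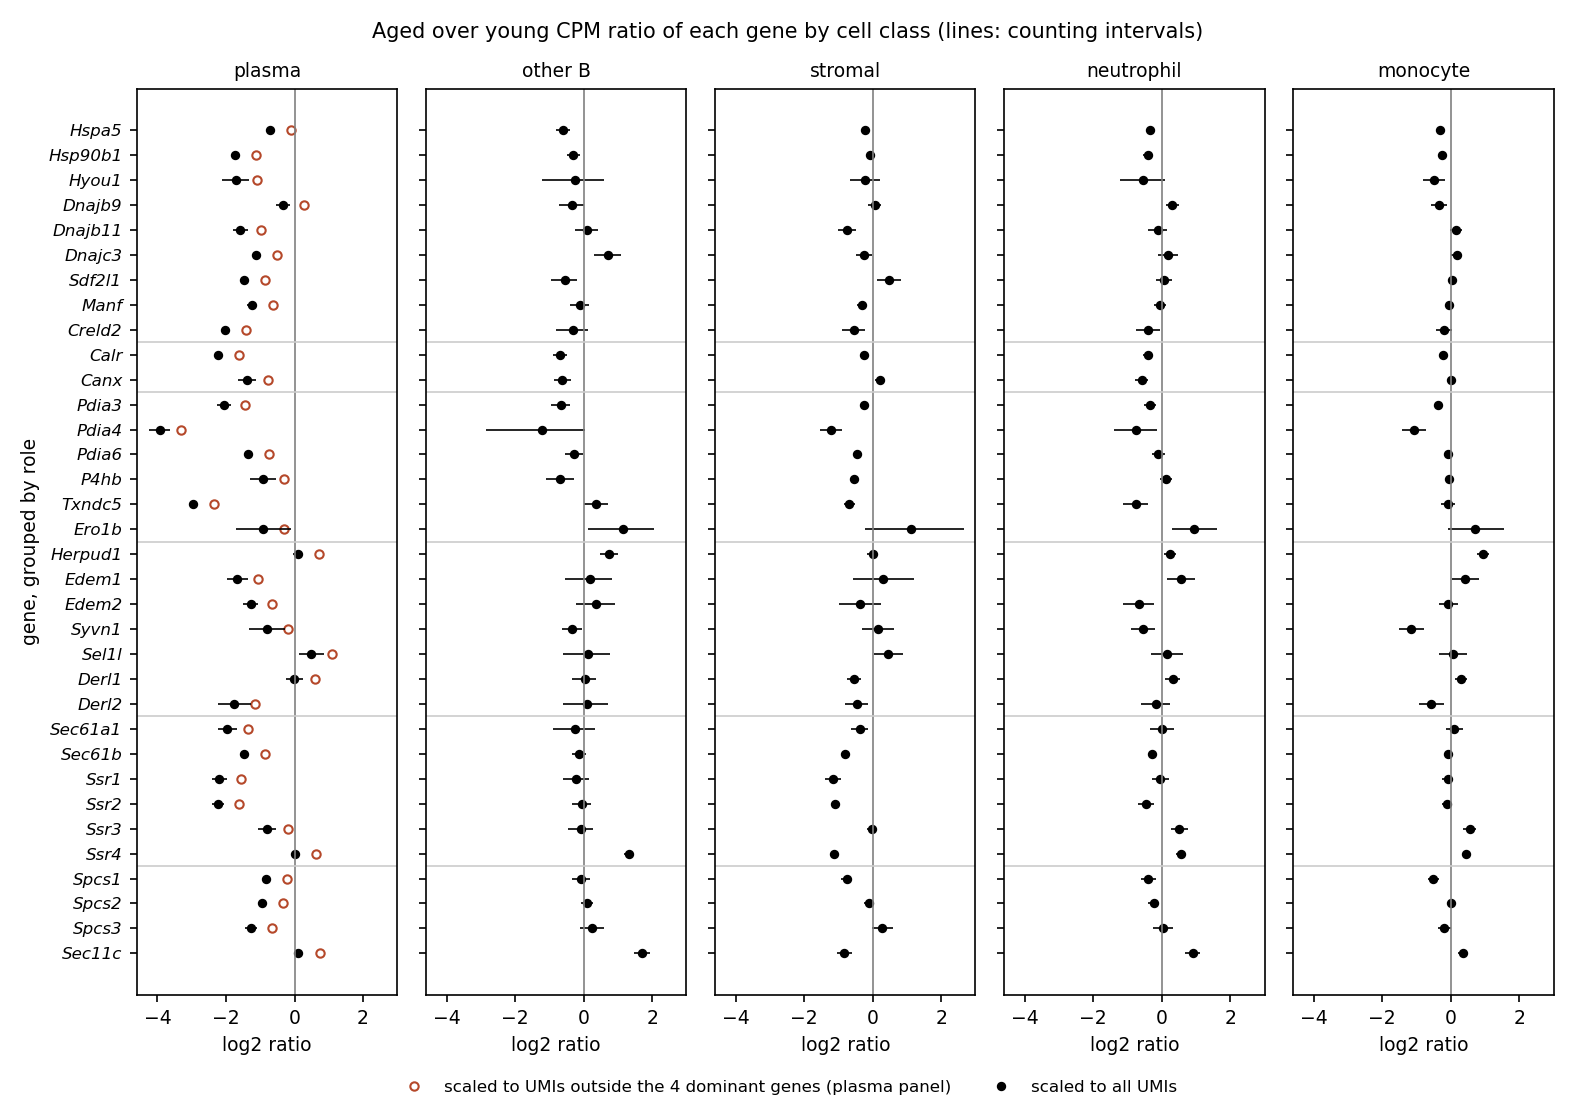
Log2 ratio of CPM, aged over young library, for each counted gene (vertical axis, grouped by role) in the 5 classes; black points use all UMIs, open points in the plasma panel use UMIs outside the 4 dominant genes, and lines are exact 95% counting intervals. In plasma cells the black points run from −3.93 (Pdia4) to 0.49 (Sel1l), and TMM scaling would move that panel up by 1.08.

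Plasma cells were few in the young library (32), and their Jchain level differed between the libraries. Among cells with 10 to 49 Jchain UMIs, 253 aged and 17 young cells, the ER share outside the 4 dominant genes was 4.197% and 5.44%, with 19 genes at least 1.5-fold lower (35.95% of all genes) and 6 higher (21.9%). In that range and on that scale Txndc5 had a log2 ratio of −2.14, Pdia4 of −3.31, Ssr4 of 1.04 and Herpud1 of 1.60. The 15 young cells with at least 50 Jchain UMIs had an ER share of 6.21% outside the 4 genes, and the 5 aged cells of that kind were too few to describe. Beside the ER genes, aged plasma cells held more RNA of erythroid markers (2629 against 188 CPM summed) and of neutrophil markers (604 against 204 CPM), whose part in the ER values was not tested. Leaving out the plasma cells with at least 10 S100a8 UMIs or a Csf1r UMI left 237 aged cells. This kept the count at 28 lower and 0 higher, with no share of all genes computed.

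In stromal cells the ER genes were at 0.652% of aged and 0.867% of young UMIs, a log2 ratio of −0.41 (−0.44 to −0.38), with −0.48 under TMM and −0.46 under median-of-ratios scaling. At least 1.5-fold lower were 9 of 34 genes (16.4% of all genes), and 1 was higher (20.6%). The 4 genes past 2-fold were Pdia4 (36.6 against 84.2 CPM, −1.20), Ssr1 (69.8 against 155 CPM, −1.15), Ssr4 (360 against 788 CPM, −1.13) and Ssr2 (213 against 451 CPM, −1.09). Of the other chaperones in these cells, Hsp90b1 was at 513 and 538 CPM and Dnajb9 at 133 and 128 CPM, and both differed by little. When the gates were set at 1 UMI, which left 40 young stromal cells, the ratio turned to 0.19 and no gene was 1.5-fold lower. For those gates no share of all genes was computed.

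The stromal cells of the libraries were not the same mixture. Dcn was the leading gate gene in 507 of the 530 aged cells and in 68 of the 198 young cells, while Col2a1, the main cartilage collagen gene, led in 0 aged and 89 young cells. Among Dcn-led cells the ER share was 0.659% (aged) and 0.927% (young), a log2 ratio of −0.49 (−0.53 to −0.46), with 11 of 33 genes at least 1.5-fold lower (17.0% of all genes) and 0 higher (18.3%). Among Chad-led cells (22 aged, 34 young) it was 0.514% and 0.749%. Within Dcn-led cells Pdia4 (−1.10), Ssr1 (−1.12), Ssr2 (−1.03), Sec61b (−1.05) and Txndc5 (−1.02) were past 2-fold, and Ssr4 was at −0.77 (364 against 623 CPM). Ssr4 was highest in the young Col2a1-led cells, at 985 CPM. Aged stromal cells also held more erythroid marker RNA (7794 against 259 CPM summed), and its part was not tested.

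Other B cells had nearly equal ER shares, 0.468% aged and 0.463% young, a log2 ratio of 0.02 (−0.03 to 0.06). Without the 7 aged cells rich in AABR07060872.1 it was −0.14 (−0.19 to −0.08), and under TMM 0.29. By gene 5 were at least 1.5-fold higher (5.95% of all genes) and 6 lower (31.9%). Under TMM, with no share of all genes computed, 7 were higher and 1 lower. Sec11c (236 against 71.7 CPM, 1.72) and Ssr4 (800 against 321 CPM, 1.31) were past 2-fold. Both rested on the 7 cells, without which Sec11c was at 83.0 against 71.7 CPM and Ssr4 at 379 against 321 CPM. Then 2 genes were higher (12.7% of all genes), Herpud1 (150 against 96.5 CPM) and Ero1b (17.2 against 6.45 CPM), and 2 were lower (19.1%), Pdia4 and Sdf2l1.

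Monocytes and neutrophils showed small differences in the summed share. In monocytes it was 0.769% aged and 0.795% young, a log2 ratio of −0.05 (−0.07 to −0.03) that turned to 0.11 under TMM and 0.10 under median-of-ratios scaling. Pdia4 (21.1 against 44.6 CPM, −1.08) and Syvn1 (20.8 against 46.1 CPM, −1.15) were past 2-fold, and Herpud1 was higher in the aged library (202 against 106 CPM, 0.93). By gene 2 of 34 were at least 1.5-fold higher (11.1% of all genes) and 2 lower (18.0%). Under TMM, with no share of all genes computed, 4 were higher and 2 lower.

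In neutrophils the shares were 0.288% aged and 0.310% young, a log2 ratio of −0.11 (−0.14 to −0.07) that turned to 0.28 under TMM and 0.30 under median-of-ratios scaling. There 2 genes were at least 1.5-fold higher (8.25% of all genes), Sec11c (99.6 against 53.3 CPM) and Ero1b (12.4 against 6.41 CPM), and 4 were lower (40.0%). Under TMM, with no share of all genes computed, 8 were higher and 0 lower. Pdia4 was lower in the aged library in all 5 classes on the all-UMI scale, with log2 ratios of −3.93 in plasma cells, −1.22 (−2.86 to 0.04) in other B cells, −1.20 in stromal cells, −1.08 in monocytes and −0.74 in neutrophils. TMM scaling leaves each of these below 0. Over the settings tried, the stromal Pdia4 ratio ran from −1.28 to −0.0030. In neutrophils with under 2 Mpo UMIs the Pdia4 ratio was −0.45 (−1.20 to 0.26). The 5 ratios come from the same pair of libraries and are not independent of each other.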

How the data were processed

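The files hold whole UMI counts per gene and cell barcode, which the authors deposited as 10x matrices of filtered barcodes, 1 library per age. Per the file headers and the submitters' processing notes they were made with Cell Ranger 6.1.1, and the genome build is not given in the sources used here. Barcodes needed 500 or more genes, with mitochondrial counts of 20% or less. No doublet caller was run, and cells meeting several of the non-plasma gates were left out. Within each class of a library the counts were added up and scaled to CPM, and genes with under 20 summed counts over the groups compared were left out of gene counts. Members passed by size alone, at 2-fold between classes and 1.5-fold between ages. Intervals are 95% Clopper-Pearson, exact Poisson or conditional binomial and cover counting error only. A level of 0 was bounded at 3 counts. Shares of cells with a UMI were taken after thinning each cell to 1000 UMIs.

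The members and lists were chosen with earlier results of these data known. Values in every class are given for the member with most UMIs of each role, the top 5 by plasma over other B ratio, and those 2-fold apart with age. Some further genes were named after their values were seen. Scaling to totals outside the 4 dominant genes, the 5% limit on AABR07060872.1, the plasma gate without S100a8 or Csf1r cells and the Mpo split were also chosen after seeing the data. Python 3.11.15, numpy 2.4.6, scipy 1.17.1 and pandas 2.3.3 were used. R 4.3.3 with edgeR 4.0.16 (TMM) and DESeq2 1.42.0 served for scaling factors only. The scripts were tested on simulated data. Of the genes in the other lists, Tmem258, Srp54, Srp72, Srpr, Srprb and Sar1a were not analysed here, and protein sequences were not used here.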

Additional observations from a re-analysis of the deposited data

Results flagged for a closer look

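In 4 genes the aged over young difference was at least 1.5-fold in opposite directions in different classes. None of these differences between classes was tested, since each age has 1 library. Sec11c was higher in the aged library in other B cells (log2 ratio 1.72) and neutrophils (0.90) and lower in stromal cells (−0.82). Ssr4 was higher in aged other B cells (1.31) and lower in aged stromal cells (−1.13). Ero1b was higher in aged other B cells (1.15) and neutrophils (0.95) and lower in aged plasma cells (−0.93), and Dnajc3 was higher in aged other B cells (0.72) and lower in aged plasma cells (−1.11). Without the 7 aged other B cells rich in AABR07060872.1, the other B ratios were 0.21 for Sec11c, 0.24 for Ssr4, 1.42 for Ero1b and −0.11 for Dnajc3. Outside the 4 dominant genes the plasma ratios were −0.32 for Ero1b and −0.50 for Dnajc3. The stromal ratios were taken over unlike mixtures of cells. Among Dcn-led cells Sec11c was at −0.25 (−0.58 to 0.08), which is not 1.5-fold lower, and Ssr4 at −0.77. Among the few Chad-led cells Sec11c was at −0.70 (−1.40 to −0.06) and Ssr4 at −1.35.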

How the results depend on the processing

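No paired analysis was possible because each age has 1 library. The plasma over other B direction held under each alternative that gave a value, while age directions in plasma cells, other B cells, stromal cells, neutrophils and monocytes each turned under some setting. For the summed share, aged over young, TMM gave log2 ratios of 0.014 in plasma cells, 0.29 in other B cells, −0.48 in stromal cells, 0.28 in neutrophils and 0.11 in monocytes, and DESeq2 scaling −0.0049, 0.30, −0.46, 0.30 and 0.10. Gates at 1 UMI gave 0.11 in other B cells, 0.19 in stromal cells, 0.26 in neutrophils and 0.20 in monocytes, and stricter gates −0.38 in stromal cells, 0.22 in neutrophils and −0.018 in monocytes. Means of single-cell shares gave −1.02 in plasma cells, −0.040 in other B cells, −0.37 in stromal cells, −0.047 in neutrophils and −0.011 in monocytes. Leaving out the 4 dominant genes gave −0.45 in plasma cells, 0.29 in other B cells and −0.0065 in monocytes, and leaving out named immunoglobulin, Jchain, mitochondrial and haemoglobin genes gave −1.02 in plasma cells and −0.076 in monocytes. Leaving out cells with at least 5% AABR07060872.1 gave −0.14 in other B cells and −0.21 in neutrophils. Without the 5% of cells with most UMIs it was −0.37 in stromal cells and −0.0077 in monocytes. In neutrophils the 200-gene filter with no mitochondrial limit gave −0.16 and the 1000-gene filter with a 10% limit gave 0.19.

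For plasma over other B cells, TMM gave 3.62 (aged) and 3.89 (young), DESeq2 scaling 3.65 and 3.93, cell means 1.40 and 2.38, totals without the 4 genes 2.88 and 3.62, and leaving out the deepest 5% of cells 1.23 and 2.30. In the aged library, leaving out cells with at least 5% AABR07060872.1 gave 1.29. In the young library gates at 1 UMI gave 2.32, stricter gates 1.97, and totals without named immunoglobulin and related genes 2.18. The aged count of members at least 2-fold higher was 33 under TMM, 33 under DESeq2 scaling and 31 without the 4 genes. The age counts moved most under scaling and gates. In plasma cells 12 members were at least 1.5-fold lower and 6 higher under TMM and under DESeq2 scaling, against 28 and 0, and 5 were higher without the 4 genes. In other B cells 1 or 2 were lower, against 6, under 7 alternatives, and 2 were higher, against 5, without cells with at least 5% AABR07060872.1. In stromal cells 0 were lower and 8 higher with gates at 1 UMI, against 9 and 1. The neutrophil counts ran from 1 to 9 higher and from 0 to 7 lower, against 2 and 4, and the monocyte counts from 1 to 10 higher and up to 4 lower, against 2 and 2. Under stricter gates no aged plasma or other B value was computed, since 5 plasma and 0 other B cells remained. Shares of all genes were not computed under TMM, DESeq2 scaling, other gates or other gene and mitochondrial limits. Member counts under those settings thus have no background beside them. The cause of these changes was not tested. With 1 library per age, no alternative measures the spread between animals, and 32 young plasma cells and 95 aged other B cells limit the classes that the main comparisons rest on.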

Other observations

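Among cells that met none of the gates, 200 aged cells gave at least 5% of their UMIs to AABR07060872.1, with a median of 17700.5 UMIs per cell, and the young library had 4 such cells. In these 200 cells the ER genes made up 0.915% of UMIs and 3.96% outside the 4 dominant genes, beside 1.03% and 4.198% in the aged plasma class. Ssr4 was at 2668 CPM and Sec11c at 901 CPM there. The remaining ungated cells had ER shares of 0.504% (aged) and 0.462% (young). The gate on Jchain thus left many aged cells with the same dominant RNA and a like ER share outside the plasma class.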
